A study of Mus musculus with 3 samples.

Results

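The data set against each other were 2 Bru-seq libraries of the mouse pancreatic cancer cell line NB490: cells that had grown in doxycycline for more than 3 weeks, called grown-out cells here, and the same line left uninduced. Both came from cells selected with puromycin to hold an shRNA (short hairpin RNA) that doxycycline induces and that targets PDX1, kept in serum-containing medium. The third library of the series, from cells given doxycycline for 48 h, is quoted beside them and shares the uninduced library. Bromouridine was offered for 30 min at 2 mM, so the reads report RNA made in that window. The labels do not say whether the cells were 1 clone, and cells given doxycycline without this hairpin were not analysed here, so the hairpin, the drug and the further weeks of culture cannot be told apart. Of 22658 gene models in the deposited files, 7934 were compared: those with a mean of at least 0.5 RPKM (reads per kilobase of gene model, scaled to the library total) over both libraries and a deposited length of at least 300 bp. Just inside that minimum lay Trmt2a, with 0.476 RPKM uninduced and 0.524 grown out, Alg2 (0.534 and 0.466) and Cenpj (0.512 and 0.488). Just outside it lay Vps18, with 0.521 and 0.479, Poc1b (0.504 and 0.495) and Nle1 (0.507 and 0.492).

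PDX1 is a homeodomain transcription factor that sets up the embryonic pancreas and later keeps insulin-producing cells in their state; in pancreatic ductal adenocarcinoma it can remain present in tumour cells. A hairpin RNA acts on finished mRNA in the cytoplasm, whereas Bru-seq captures newly made RNA through its bromouridine. Its reads, over introns and exons alike, follow the transcription of a gene and not its store of mRNA.

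Each condition had 1 library, so no p-value was computed and no difference has a replicate check. The read total was 51006774 in the uninduced and 41632296 in the grown-out library, with medians of 2022 and 1657 reads over the 7934 genes. Intervals below are exact 95% intervals from the read counts, cover counting error only, and can be too narrow because reads were not counted by molecular identifiers. Epithelial markers were present in both libraries. Krt7 had 11.2 RPKM uninduced and 11.8 grown out, Krt8 10.8 and 11.4, and Cdh1, the E-cadherin gene, 4.81 and 5.35. Krt19 had 13.6 and 10.1, Krt18 14.2 and 13.5, and Muc1 2.55 and 2.38, so the markers did not run one way. Epcam, another epithelial marker, was low at 0.0984 and 0.0270 RPKM. No listed acinar, endocrine or endothelial marker was measured: Ptf1a, Cpa1 and Prss1 (acinar), Ins1, Ins2 and Gcg (endocrine) and Cldn5 (endothelial) were at 0 reads in both libraries. The summed RPM (reads scaled to the library total, without the model length) of the 16 immune markers were 5.55 uninduced and 4.05 grown out, with 6 members, Csf1r and Cd3e among them, at 0 in both. Those of the 16 endocrine markers were 6.67 and 4.11, of the 12 endothelial markers 5.57 and 3.57, of the 15 acinar markers 1.73 and 1.66, and of the 13 fibroblast markers 68.8 and 80.8, with Pdgfrb and Thy1 at 0 in both. The 2 measured immune markers were Cd68, at 0.994 RPKM uninduced and 0.901 grown out, and Cd14, given below. The 1 measured fibroblast marker was Gsn, at 1.27 and 1.53 RPKM. The part of these markers in the results was not tested.

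Most genes were transcribed at nearly the same level in grown-out and uninduced cells, and those that were not were mostly lower. The median log2 ratio over all genes was 0.01, and its quartiles were -0.14 and 0.15. A gene is called past 1.5-fold here where the log2 ratio of RPKM plus 0.05 reached that size and the interval of the plain ratio excluded no change. By that rule 90 genes were higher, 1.13% of those measured, and 234 were lower, 2.95%. Past 2-fold 14 were higher (0.176%) and 60 lower (0.756%). Beyond counting error alone, meaning an interval that excluded no change at any size, 2684 were higher (33.8%) and 2323 lower (29.3%). List counts below are to be read against these shares, which are large because the libraries are deep. Of the 90 higher genes, 22 had under 0.5 RPKM in uninduced cells, and of the 234 lower genes, 73 had under 0.5 RPKM in grown-out cells, so these passed the expression minimum through 1 library. Called members of several lists below are among them. In bulk libraries, fewer cells transcribing a gene and less transcription in each cell cannot be told apart.

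**Figure D1:**
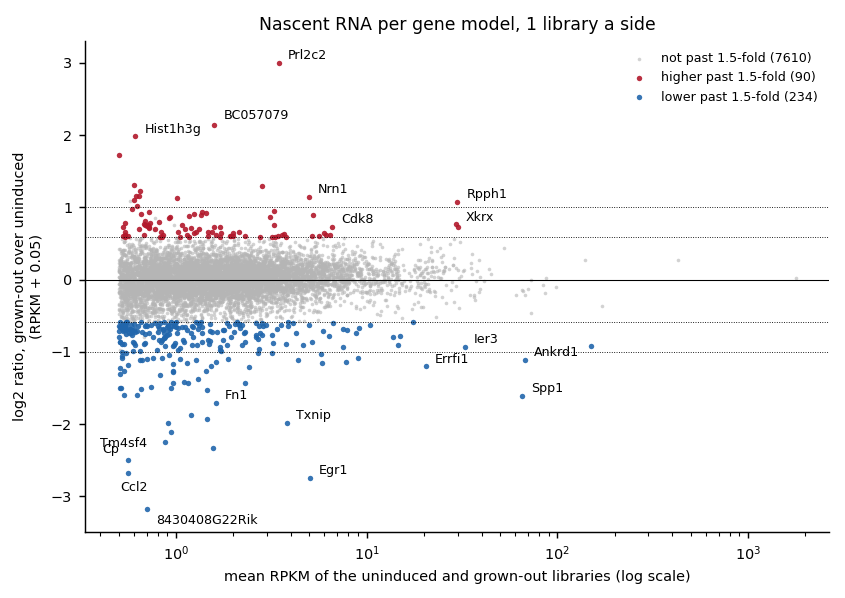
Each point is 1 of 7934 gene models, with the mean RPKM of both libraries on a log x axis and the log2 ratio of grown-out over uninduced cells (RPKM plus 0.05) on the y axis. Solid line, no change; dotted lines, 1.5-fold and 2-fold. The 90 genes higher past 1.5-fold (red) and 234 lower (blue) lie around a narrow band, with Prl2c2 highest and 8430408G22Rik lowest.

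Pdx1 itself was transcribed at 1.59 RPKM in uninduced cells, 1.05 at 48 h and 1.41 in grown-out cells. The grown-out level was 1.12-fold lower, with an interval from 0.961 to 1.30 that included no change. Of the genes around it, Polr1d had 2.39 RPKM uninduced and 2.63 grown out, Pan3 5.06 and 5.19, and Cdx2, the intestinal homeobox neighbour, 0.105 and 0.0983. Rasl11a, a small GTPase gene, counted 15.1 reads uninduced, 4 at 48 h and 4 grown out, or 0.111, 0.0311 and 0.0362 RPKM. Cdx2 and Rasl11a were below the minimum for the comparison. Nascent reads do not measure how far the hairpin lowered finished Pdx1 mRNA or protein.

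The genes most clearly higher in grown-out cells, those whose interval lay farthest from no change, had various roles. Prl2c2, a proliferin of the prolactin family, had 0.733 RPKM uninduced, 0.491 at 48 h and 6.20 grown out. It was thus low in the first 2 libraries and 8.47-fold higher (7.56 to 9.51) in grown-out than in uninduced cells. It has close copies, of which Prl2c5 counted 1 read uninduced and 7 grown out and Prl2c1 counted 2 and 15. The copies Prl2c3 and Prl2c4, scaled by only 21 and 5 bp, counted 0.154 and 0 reads grown out. The share of reads placed among copies is therefore uncertain. Nrn1, which encodes neuritin, had 3.07 RPKM uninduced, 2.49 at 48 h and 6.87 grown out. Wnt7a, a Wnt ligand gene, had 1.27, 1.13 and 2.15 RPKM and was 1.69-fold higher (1.61 to 1.77).

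Among membrane proteins, Aqp5, a water channel, had 2.19 RPKM uninduced, 1.72 at 48 h and 4.03 grown out, 1.84-fold higher (1.63 to 2.09). Kcnn4, a calcium-activated potassium channel, had 0.486, 0.492 and 0.893 RPKM. Slco2a1, a prostaglandin carrier, had 0.496, 0.484 and 0.876 RPKM. In these 2 genes the 48 h level equalled the uninduced one within its counting interval, while the grown-out level stood above it. Xkrx, an X-linked relative of the XK membrane protein, was the strongest transcribed of the group, at 21.8, 19.1 and 37.1 RPKM, 1.70-fold higher (1.67 to 1.74). Anxa10, an annexin of gastric epithelium, had 0.806, 0.439 and 1.53 RPKM, below the uninduced level at 48 h and above it in grown-out cells.

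In the nucleus, Cdk8, the kinase of the Mediator complex, had 4.97, 5.68 and 8.26 RPKM and was 1.66-fold higher (1.63 to 1.69) on 18040 and 24480 reads. Hnrnpa0, an RNA-binding protein gene, had 2.21, 2.5 and 4.33 RPKM, 1.96-fold higher. Rpph1, the RNA of RNase P, differed from both in that its 48 h level of 35.1 RPKM was already near the grown-out 40.6, against 19.2 uninduced. Hist1h3g, a replication-dependent histone gene, was 4.64-fold higher (1.89 to 17.5) on only 5.44 and 20.6 reads. Eepd1, which has an endonuclease domain, had 0.475, 0.502 and 0.802 RPKM. Slco2a1, Eepd1, Wnt7a and Kcnn4 were no longer past 1.5-fold in at least 1 other processing setting.

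A long model among the higher genes was unlike its surroundings. The clone-named model BC057079, picked for its values and not by the naming rule, spans 316296 bp and had 0.553, 0.657 and 2.62 RPKM. It was 4.74-fold higher (4.63 to 4.85) and gained more reads than any other measured gene, from 174.8 to 828.1 RPM. The genes on its flanks did not share this: Mllt3 had 1.12 and 1.06 RPKM, Klhl9 1.92 and 1.59, and Ptplad2 counted 12 reads uninduced and 0 grown out. The BC057079 model overlaps another on the same strand.

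The genes most clearly lower in grown-out cells had various roles, and some were equally low at 48 h. Cp, which encodes the copper-carrying ferroxidase ceruloplasmin, had 0.982 RPKM uninduced, 0.127 at 48 h and 0.133 grown out. It was 7.38-fold lower (6.52 to 8.38) on 2532 and 280 reads, and both doxycycline libraries stood at the same low level. Its neighbours Hps3, Gyg and Hltf had 1.38, 1.16 and 2.18 RPKM uninduced and 1.5, 1.1 and 2.06 grown out. Ccl2, the monocyte chemokine gene, counted 96 reads uninduced, 11 at 48 h and 9 grown out, or 1.00, 0.121 and 0.115 RPKM, and was 8.70-fold lower (4.40 to 19.6). Sepp1, a selenium carrier, had 2.33, 0.532 and 0.574 RPKM, again with both doxycycline libraries low. Spp1, which encodes osteopontin, lost more reads than any other measured gene, from 586.0 to 191.8 RPM, and had 98.6 RPKM uninduced and 32.3 grown out.

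In a second set of lower genes the grown-out level lay below the 48 h one as well. Tm4sf4, a tetraspanin-like gene of duct and gut epithelium, had 1.47, 0.933 and 0.270 RPKM. Its neighbour Tm4sf1 had 10.7 RPKM uninduced and 10.1 grown out, and Wwtr1 3.47 and 2.80. Fn1, the fibronectin gene, had 2.51, 1.57 and 0.731 RPKM. Pawr, a pro-apoptotic regulator, had 0.782, 0.506 and 0.245 RPKM, and Prickle1, a planar cell polarity gene, 1.70, 1.33 and 0.601 RPKM, 2.83-fold lower (2.70 to 2.96). Ly6e, an interferon-inducible membrane protein gene, had 1.55, 0.659 and 0.322 RPKM. Cyp1b1, a cytochrome that oxidises aryl hydrocarbons and steroids, had 1.90, 0.723 and 0.481 RPKM. Over all 234 lower genes the median log2 ratio to uninduced cells was -0.43 at 48 h and -0.78 in grown-out cells, and over the 90 higher genes 0.08 and 0.71. The grown-out medians follow from how the genes were chosen, and the 48 h ones share the uninduced library.

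Several clone-named models were as low, chosen after their values were seen. 8430408G22Rik, listed as Depp1 in the reference table, counted 144 reads uninduced, 37 at 48 h and 9 grown out, 13.1-fold lower (6.69 to 29.1). A930038C07Rik, listed as Ndnf, a secreted neuron-derived factor, had 2.65, 1.24 and 0.485 RPKM. The long noncoding RNA 2610307P16Rik, with a model of 425389 bp, had 1.44, 1.09 and 0.648 RPKM and lost the most reads after Spp1. Vmp1, a vacuole membrane gene chosen the same way, had 195.8 RPKM uninduced, 111.1 at 48 h and 104.0 grown out, 1.88-fold lower (1.84 to 1.92). Its model overlaps another on the same strand and is scaled by 2681 bp of a 99958 bp span.

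**Figure D2:**
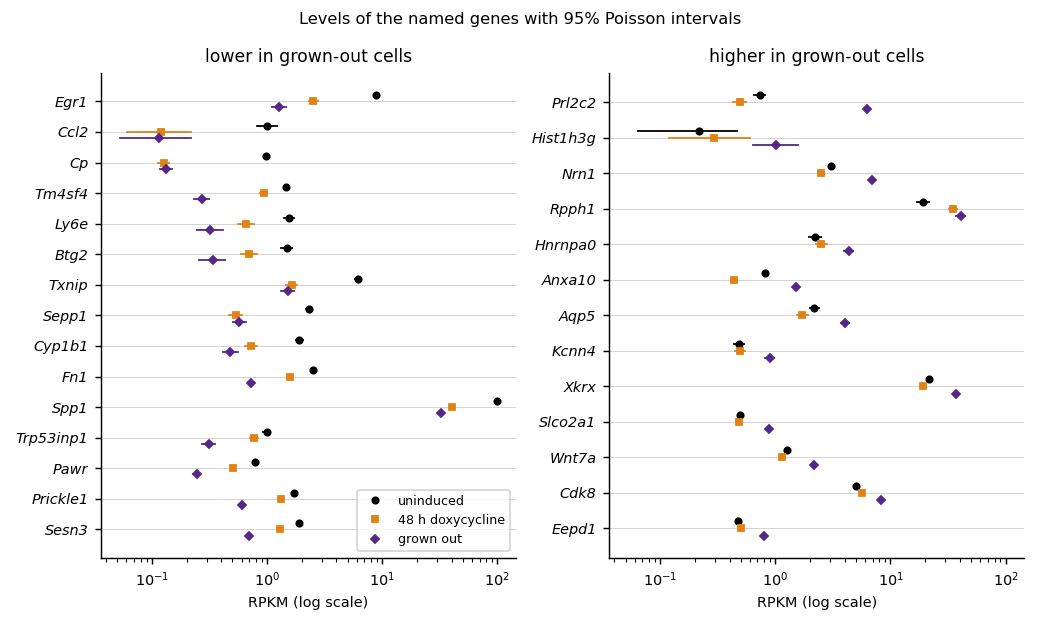
Levels in RPKM (log x axis) of the 15 lower and 13 of the 15 higher genes named by the rule, in the uninduced (black circles), 48 h (orange squares) and grown-out (purple diamonds) libraries, 1 library each, with exact 95% Poisson intervals as bars. Cp, Ccl2, Txnip and Sepp1 sit at about the same low level in both doxycycline libraries, whereas Fn1, Pawr and Tm4sf4 step down from 48 h to grown out.

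Early genes of the serum response, which growth factors and stress switch on within minutes through serum response factor, ternary complex factors and CREB, were lower in grown-out cells as a list. Of 29 measured, 14 were lower past 1.5-fold and 0 higher, 20 were lower and 2 higher beyond counting error, and the median log2 ratio was -0.47. The 20 and 2 are 69.0% and 6.90%, beside 29.3% and 33.8% of all measured genes, of which 2.95% were lower past 1.5-fold. Egr1, an early zinc-finger factor, had 8.81 RPKM uninduced, 2.52 at 48 h and 1.27 grown out. The AP-1 subunit gene Fos had 0.779, 0.110 and 0.242 RPKM, so its lowest level was at 48 h. Jun, the partner of Fos, had 1.42, 0.570 and 0.497 RPKM and was 2.86-fold lower. Btg2, an antiproliferative gene, had 1.48, 0.696 and 0.336 RPKM. The others past 2-fold were Zfp36l1, an mRNA-decay factor, at 10.8 and 4.86 RPKM uninduced and grown out, and Atf3, a stress-induced factor, at 0.922 and 0.398. Fosl1, Nr4a2 and Klf10 had intervals that included no change, and Klf4 and Btg1 were the 2 members higher beyond counting error, with log2 ratios of 0.36 and 0.18. List members named beyond the naming rule, here and below, were chosen after their values were seen to show the range of a list, and lists share members.

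Upstream sequence of early genes can hold the cAMP response element TGACGTCA, where CREB and ATF factors bind. In the 250 bases before the first listed start, from the RefSeq promoters of GRCm38.p6, 3 of 23 matched early genes held it on either strand, against 3.22% of the 6397 measured genes that matched and 1.62% of 27025 promoters. Of the 172 matched genes lower past 1.5-fold, 5 held the element, or 2.91%. The match is a description of the letters and not of binding. The 3 windows are shown because all these genes, Btg2, Ppp1r15a and Dusp1, were lower past 1.5-fold, with the element in capitals. They lie at chr1:134079156-134079405, chr7:45526269-45526518 and chr17:26508473-26508722, all on the minus strand.
Btg2: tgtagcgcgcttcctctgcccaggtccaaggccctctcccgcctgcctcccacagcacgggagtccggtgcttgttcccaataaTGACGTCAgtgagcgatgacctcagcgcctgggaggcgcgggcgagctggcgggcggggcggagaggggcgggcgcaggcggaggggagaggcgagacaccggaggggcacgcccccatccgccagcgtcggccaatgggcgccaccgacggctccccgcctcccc
Ppp1r15a: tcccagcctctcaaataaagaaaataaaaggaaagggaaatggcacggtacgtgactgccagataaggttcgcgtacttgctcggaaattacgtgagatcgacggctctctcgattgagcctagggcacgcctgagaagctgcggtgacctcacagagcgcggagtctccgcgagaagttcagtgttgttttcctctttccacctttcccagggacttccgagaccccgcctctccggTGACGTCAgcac
Dusp1: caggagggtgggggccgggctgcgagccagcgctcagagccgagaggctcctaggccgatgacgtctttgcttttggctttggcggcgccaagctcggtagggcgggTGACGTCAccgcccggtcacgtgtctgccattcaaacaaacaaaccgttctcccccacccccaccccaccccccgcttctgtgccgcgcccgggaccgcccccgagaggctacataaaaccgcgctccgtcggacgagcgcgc
The element starts 166 bases before the start in Btg2, 12 in Ppp1r15a and 143 in Dusp1. Ppp1r15a, a phosphatase subunit gene of the stress response, had 0.798 RPKM uninduced and 0.412 grown out, and Dusp1, a phosphatase of MAP kinases, had a log2 ratio of -0.63.

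Feedback regulators below the EGF receptor were split. Of 26 measured ERK feedback and Etv genes, 3 were lower past 1.5-fold and 0 higher, with 11 lower and 9 higher beyond counting error, shares of 42.3% and 34.6% against 29.3% and 33.8% of all measured genes. The 3 of 26 lower past 1.5-fold stand beside 2.95% of all measured genes. The 3 were Spry1, a receptor signalling inhibitor, at 1.63 RPKM uninduced, 0.754 at 48 h and 0.579 grown out, Ier3 at 42.9, 20.8 and 22.5, and the ERK phosphatase gene Dusp6 at 18.9, 8.23 and 11 RPKM. Of 10 measured EGF family ligands and receptors, the feedback inhibitor Errfi1 was the 1 called, at 28.5, 15.7 and 12.4 RPKM. Among the ligands, Hbegf had 6.60 RPKM uninduced and 4.48 grown out, whereas Areg had 4.54 and 6.30 and Ereg 2.64 and 3.80, so the ligands did not run one way.

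YAP target and Hippo genes, and actin and contractile genes, were lower in part. Of 30 measured YAP target and Hippo genes, 5 were lower past 1.5-fold and 0 higher, 16 lower and 4 higher beyond counting error, with a median of -0.08. The 16 and 4 are 53.3% and 13.3%, beside 29.3% and 33.8% of all measured genes, of which 2.95% were lower past 1.5-fold. Cyr61, a matricellular protein gene, had 19.0 RPKM uninduced, 12.7 at 48 h and 10.1 grown out, 1.89-fold lower (1.76 to 2.02). Ctgf, its close relative, had 12.3, 7.11 and 5.75 RPKM. Wtip, a LIM protein of the Hippo pathway, had 0.751, 0.930 and 0.346 RPKM, high at 48 h and low in grown-out cells. Axl and Tead4, by contrast, were higher beyond counting error, with log2 ratios of 0.33 and 0.32. Of 32 measured actin and contractile genes, 6 were lower past 1.5-fold and 0 higher, and 19 lower and 8 higher beyond counting error. Cald1, which encodes the actin-binding caldesmon, had 1.19, 1.44 and 0.447 RPKM, and Csrp1, a LIM protein gene, 0.973, 0.592 and 0.426. Pdlim1 was 3.06-fold lower (1.88 to 5.01) on 85.2 and 22.7 reads, in a short model that overlaps another. Actb itself had 34.9 RPKM uninduced and 42.2 grown out.

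The TEAD site GGAATG stood in the 250 bases upstream of 12 of 24 matched genes of the YAP list, against 9.80% of matched measured genes. The median log2 ratio of those 12 was -0.20 and of the other 12 -0.05. Over all matched measured genes the medians with and without the site were -0.009 and 0.014. It stood in 10.5% of the 172 matched genes lower past 1.5-fold and in 12.6% of all promoters. The site thus did not mark the lower genes in general. Cyr61 (Ccn1 in RefSeq) is shown as the one of the 12 with the site that was lower past 1.5-fold with the best depth and no overlap. Its window lies at chr3:145649986-145650235 of GRCm38.p6, minus strand, with the site, read on the opposite strand as CATTCC, in capitals 103 bases before the start.
Cyr61: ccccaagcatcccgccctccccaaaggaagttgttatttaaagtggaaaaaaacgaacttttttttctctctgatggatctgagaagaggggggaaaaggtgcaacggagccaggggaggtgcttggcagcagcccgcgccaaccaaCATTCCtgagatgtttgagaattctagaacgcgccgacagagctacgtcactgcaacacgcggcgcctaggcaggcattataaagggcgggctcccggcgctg
Among the actin genes, 4 of 29 held the CArG box of serum response factor, namely Fhl2, Cnn2, Actg1 and Vcl, against 1.03% of matched measured genes. None of the 4 was lower past 1.5-fold. Of the 23 matched early genes, 1 held this box, Zfp36, whose interval included no change. Not all of the 29 measured early genes had a matched promoter, and sequence beyond the 250 bases was not searched. The search therefore cannot show that lower early genes lack the box.

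Genes of cell identity gave no common direction. The shares over all measured genes were 29.3% lower and 33.8% higher beyond counting error, and 2.95% and 1.13% past 1.5-fold. Among 12 measured pancreatic and foregut transcription factors, Foxa1, a pioneer factor, had 0.668 RPKM uninduced, 0.591 at 48 h and 0.346 grown out, and Hes1, a Notch effector, 3.34, 1.71 and 2.11. Both were lower past 1.5-fold, 1.93-fold (1.48 to 2.55) and 1.58-fold (1.33 to 1.87). Hnf4a, Gata4, Foxa2 and Klf5 had log2 ratios between -0.04 and 0.03. Of 10 epithelial junction genes none was past 1.5-fold, 3 were higher and 3 lower beyond counting error, and Jup, the plakoglobin gene, was lowest at -0.44. Of 16 keratin and duct genes 4 were lower past 1.5-fold and 0 higher, and 10 lower and 4 higher beyond counting error. Besides Tm4sf4 and Spp1, these were Clu, the clusterin gene, at 8.10, 5.77 and 3.60 RPKM, and Car2, a carbonic anhydrase of duct cells, at 1.37, 1.14 and 0.854. The galectin gene Lgals3 lay at the other end, with 4.53 RPKM uninduced and 6.48 grown out.

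Only 4 of 17 gastric-type genes were measured, and 3 of them, Anxa10, Syt8 and Vsig1, were higher past 1.5-fold. Syt8 had 0.976, 0.590 and 1.57 RPKM and Vsig1, a junction protein gene of stomach epithelium, 1.54, 0.890 and 2.42, so all 3 were below the uninduced library at 48 h and above it in grown-out cells. The measured member that was lower, Onecut2, had 3.23 RPKM uninduced and 2.59 grown out. The gastric median of 0.65 became -0.32 where a mean of at least 2 RPKM was required, because Onecut2 and no other member met it. Of 6 squamous and basal genes, Gata3 was 1.72-fold higher (1.58 to 1.88), at 0.791, 0.889 and 1.36 RPKM, and Sprr1a, a cornified envelope gene, 2.01-fold lower (1.57 to 2.59).

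The mesenchymal list was also divided. Its 61.5% lower and 30.8% higher beyond counting error stand beside 29.3% and 33.8% of all measured genes. Of 13 measured members, 4 were lower past 1.5-fold and 0 higher, and 8 lower and 4 higher beyond counting error, with a median of -0.32 that became 0.20 where a mean of at least 2 RPKM was required. Besides Fn1 and Cald1, Loxl2, a collagen cross-linking oxidase, had 0.707, 0.508 and 0.330 RPKM and Twist2, a transcription factor of mesenchyme, 1.41, 0.642 and 0.770. Vim was 1.05-fold higher (1.03 to 1.08), Cdh1 1.11-fold higher (1.09 to 1.14) and Zeb1 1.18-fold lower (1.15 to 1.2). S100a4 had 2.70 RPKM uninduced and 3.90 grown out, and Axl 2.53 and 3.20. Among 17 collagens and matrix proteins the 3 lower past 1.5-fold were Fn1, Spp1 and Thbs1, the thrombospondin gene, which had 1.57 RPKM uninduced, 2.19 at 48 h and 0.886 grown out. Of the basement membrane collagens, Col4a1, at 2.26 and 2.81 RPKM, and Col4a2 were higher beyond counting error, and Col4a5 and Col18a1 lower, at log2 ratios of -0.35 and -0.17. Of 14 matrix remodelling enzymes and inhibitors, 10 were lower and 2 higher beyond counting error, and Loxl2 and the granzyme inhibitor gene Serpinb9, at 1.4 and 0.704 RPKM, passed 1.5-fold. Of 8 integrin subunits none passed 1.5-fold, 4 were lower and 1, Itga6, higher beyond counting error. Of 17 S100 and annexin genes, 6 were higher and 5 lower beyond counting error and Anxa10 was the 1 called.

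**Figure D3:**
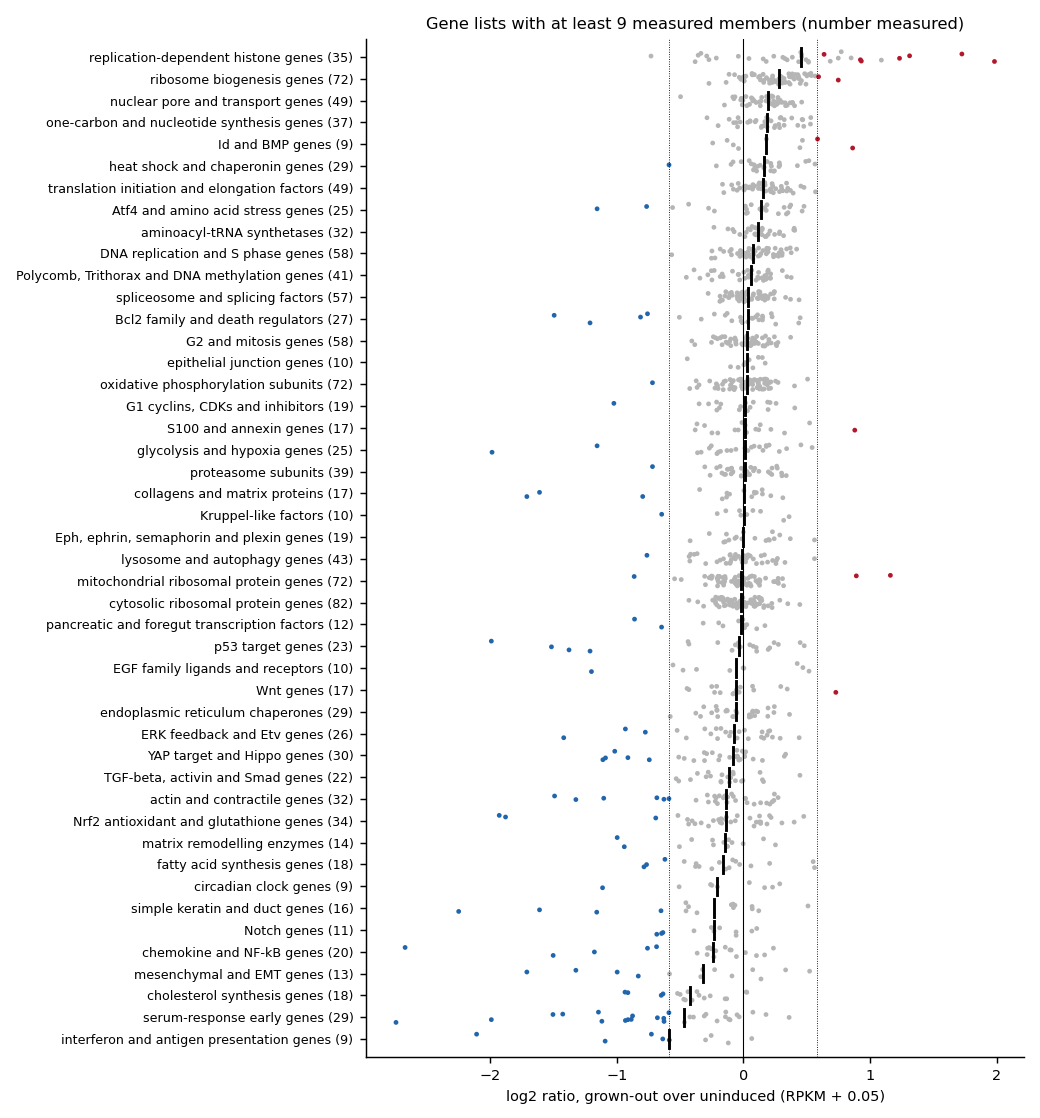
Log2 ratio of grown-out over uninduced cells (RPKM plus 0.05) for each measured member of the gene lists with at least 9 measured members, ordered by list median (black bars), with the number measured in parentheses. Red and blue points are higher and lower past 1.5-fold (dotted lines). Interferon, serum-response early and cholesterol synthesis genes have the lowest medians, at -0.59, -0.47 and -0.42, and histone and ribosome biogenesis genes the highest, at 0.45 and 0.28.

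Notch and TGF-beta pathway genes were lower more often than higher, and Id genes were higher. Over all measured genes, 29.3% were lower and 33.8% higher beyond counting error, and 2.95% and 1.13% past 1.5-fold. Of 11 Notch genes, 3 were lower past 1.5-fold, namely Hes1, Nrarp, a feedback inhibitor of Notch, at 1.15 RPKM uninduced and 0.700 grown out, and the coactivator gene Maml2 at 1.61 and 1.02, and 8 were lower and 1 higher beyond counting error. Of 22 TGF-beta, activin and Smad genes none passed 1.5-fold, while 14 were lower and 4 higher beyond counting error, from Tgif1 at -0.53 to the inhibitor gene Smad7 at 0.45. Of 9 Id and BMP genes, Id1 and Id3, which hold back helix-loop-helix transcription factors, were higher past 1.5-fold. Id1 had 2.19 RPKM uninduced, 0.690 at 48 h and 3.31 grown out, and Id3 had 0.646, 0.328 and 1.22 on 51.7, 25 and 79.5 reads. Of 17 Wnt genes, Wnt7a was the 1 called, with 5 (29.4%) higher and 8 (47.1%) lower beyond counting error. Of 19 ephrin, semaphorin and plexin genes none was called, with 8 (42.1%) higher and 5 (26.3%) lower.

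The listed inflammatory and interferon-linked genes were mostly lower. Of 20 chemokine and NF-kB genes, 5 were lower past 1.5-fold and 0 higher, and 15 lower and 0 higher beyond counting error, with a median of -0.24. After Ccl2 came Cd14, the endotoxin co-receptor, at 1.42, 0.451 and 0.469 RPKM, the chemokine gene Cxcl12 at 0.795, 0.598 and 0.324, and Birc3, a ubiquitin ligase of NF-kB signalling, at 1.16, 0.747 and 0.668. Of these, Ccl2, Cd14 and Cxcl12 had under 0.5 RPKM in grown-out cells. They passed the expression minimum through the uninduced library. Cd14 is also an immune marker, and the immune marker sums are given above. Nfkbia and Cxcl5, at log2 ratios of 0.17 and 0.10, had intervals that included no change. Of 9 interferon and antigen presentation genes, 5 were lower past 1.5-fold and 8 lower beyond counting error, with 0 higher by either rule and a median of -0.59. Irf1, an interferon regulatory factor, had 0.834, 0.504 and 0.485 RPKM, Ifit2 1.12, 0.997 and 0.704, and Ifitm2 1.05, 0.956 and 0.464 on 59.9, 52.0 and 21.7 reads. Irf1, Ifitm2 and Ly6e, under 0.5 RPKM in grown-out cells, likewise passed the minimum through the uninduced library. Most of that list was not measured, since 43 genes had a model. Irgm1, an interferon-induced GTPase outside the list and chosen after its values were seen, had 3.36, 1.98 and 1.22 RPKM. Ifi202b, an interferon-activated gene outside the list and chosen the same way, was higher past 1.5-fold in grown-out cells.

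The mevalonate and sterol pathway, which SREBP2 switches on when sterol in the endoplasmic reticulum is low, was lower nearly throughout. Of 18 measured members, 16 were lower beyond counting error and 0 higher, 4 were lower past 1.5-fold, and the median was -0.42. The 16 are 88.9%, against 29.3% of all measured genes. Insig1, which holds SREBP in the endoplasmic reticulum, had 9.86 RPKM uninduced, 4.30 at 48 h and 5.13 grown out. Idi1, isopentenyl diphosphate isomerase, had 6.06, 3.25 and 3.89 RPKM, and Cyp51, lanosterol demethylase, 4.72, 2.67 and 2.99. All 3 were lowest at 48 h and lay between the other libraries in grown-out cells. Nsdhl, a sterol dehydrogenase, had 2.93, 1.89 and 1.53 RPKM in a model that overlaps another. Srebf2 itself, which encodes SREBP2, was lower by less, at 3.65 RPKM uninduced and 3.33 grown out. The interval of Ebp, a sterol isomerase gene that acts late in the pathway, included no change.

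Of the 10 motifs searched, the CCAAT box, where NF-Y binds next to SREBP in sterol genes, was in all 11 cholesterol genes that matched a RefSeq promoter, on either strand of the 250 bases upstream. It is a short motif held by 37.8% of matched measured genes and 34.5% of all promoters, and by 44.2% of the 172 matched genes lower past 1.5-fold. The 4 called genes are shown with the box in capitals, as CCAAT or, on the opposite strand, ATTGG. The windows, of GRCm38.p6, are chr5:28071162-28071411 on the plus strand for Insig1, chrX:72918271-72918520 plus for Nsdhl, chr5:4104698-4104947 minus for Cyp51 and chr13:8885356-8885605 plus for Idi1.
Insig1: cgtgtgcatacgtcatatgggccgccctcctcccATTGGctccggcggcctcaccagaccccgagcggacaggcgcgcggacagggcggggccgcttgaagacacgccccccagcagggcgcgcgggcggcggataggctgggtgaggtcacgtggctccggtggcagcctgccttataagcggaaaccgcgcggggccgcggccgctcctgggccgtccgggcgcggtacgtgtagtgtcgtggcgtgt
Nsdhl: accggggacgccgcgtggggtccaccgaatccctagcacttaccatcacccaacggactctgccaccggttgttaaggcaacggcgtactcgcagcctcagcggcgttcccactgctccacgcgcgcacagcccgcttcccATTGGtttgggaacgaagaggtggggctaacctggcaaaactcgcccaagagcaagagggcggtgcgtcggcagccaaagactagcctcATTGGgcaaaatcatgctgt
Cyp51: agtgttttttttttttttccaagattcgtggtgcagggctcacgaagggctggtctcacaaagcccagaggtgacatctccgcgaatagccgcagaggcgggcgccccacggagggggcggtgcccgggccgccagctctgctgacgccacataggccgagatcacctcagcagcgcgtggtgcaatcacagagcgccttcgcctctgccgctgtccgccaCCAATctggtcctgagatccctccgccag
Idi1: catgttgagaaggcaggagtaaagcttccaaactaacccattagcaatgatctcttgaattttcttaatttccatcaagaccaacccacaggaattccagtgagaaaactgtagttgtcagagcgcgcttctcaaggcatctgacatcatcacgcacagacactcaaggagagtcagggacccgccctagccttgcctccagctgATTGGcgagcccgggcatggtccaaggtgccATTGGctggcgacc
The box begins 216 bases before the start in Insig1, 109 and 20 in Nsdhl, 29 in Cyp51 and 45 and 14 in Idi1. Besides CCAAT and the CRE, TEAD and CArG motifs above, the search took the E-box CACGTG, the AP-1 site TGACTCA, the TATA box TATAAA, the ETS site CCGGAAG, the GC box GGGCGG and the sterol element TCACCCCA. None of these added motifs contains another, but a CArG match can hold the letters of the TATA box or of CCAAT. The motifs reported were picked with the results of all 10 known. The sterol element itself stood in 1 of the 11 cholesterol genes, against 1.13% of matched measured genes. The E-box stood in 5 of 63 matched ribosome biogenesis genes, 7.94% against 9.11% of measured genes, and the ETS site in 16 of 63, 25.4% against 16.6%.

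Fatty acid genes were lower less evenly. Of 18 measured, 3 were lower past 1.5-fold and 0 higher, and 12 lower and 4 higher beyond counting error. The 12 and 4 are 66.7% and 22.2%, against 29.3% and 33.8% of all measured genes. Scd1, stearoyl-CoA desaturase, had 8.08 RPKM uninduced, 4.87 at 48 h and 4.67 grown out, in a model that overlaps another. Acsl4, an acyl-CoA ligase for arachidonate, had 3.55, 2.57 and 2.07 RPKM and Fads1, a desaturase, 1.84, 1.28 and 1.18. Acsl5 and Gpam, which activate fatty acids and start glycerolipid synthesis, were higher instead, at 4.75 and 7.04 RPKM and at 0.730 and 1.09, uninduced and grown out.

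The machinery that makes ribosomes was transcribed more in grown-out cells, by small steps over many genes. Of 72 measured ribosome biogenesis genes, 54 lay above the uninduced level beyond counting error and 2 lay below it. The median log2 ratio was 0.28, although Bop1 and Nop2 alone passed 1.5-fold. Bop1, of the large-subunit processing complex, had 0.519 RPKM uninduced, 0.567 at 48 h and 0.907 grown out, and the rRNA methyltransferase gene Nop2 had 2.51, 2.85 and 3.82. Ncl, the nucleolin gene, had 23 RPKM uninduced and 34.1 grown out. Imp3 was lowest at -0.27, with an interval that included no change. The median stayed between 0.22 and 0.29 in the 8 other settings.

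Other growth genes were higher in the same small way. Their counts stand beside 33.8% higher and 29.3% lower beyond counting error over all measured genes. Of 49 nuclear pore and transport genes, 36 were higher and 3 lower beyond counting error (median 0.20), among them the exportin gene Xpo1 at 8.02 and 10.6 RPKM. Of 37 genes of one-carbon and nucleotide synthesis, 25 were higher and 3 lower (0.18), with Cad, which starts pyrimidine synthesis, at 0.636 and 0.94 RPKM. Of 29 heat shock and chaperonin genes, 23 were higher and 4 lower (0.16), with Hsp90aa1 at 16.9 and 25.1 RPKM. Dnajb1, a co-chaperone of the heat shock response, was the 1 past 1.5-fold and was lower, at 1.54 and 1.01. Of 49 translation factors, 31 were higher and 3 lower (0.15), with Eif5a at 6.08 and 9.05 RPKM, and of 32 aminoacyl-tRNA synthetases, 19 and 2 (0.12), with Gars at 4.36 and 5.79. Of 25 Atf4 and amino acid stress genes, 12 were higher and 5 lower, but the 2 called, Ddit4, an inhibitor of mTORC1, and Nupr1, were lower, with Ddit4 at 1.59, 0.688 and 0.687 RPKM. The structural proteins of the ribosome did not share the shift: of 82 cytosolic ribosomal protein genes, 22 were higher and 25 lower, and of 72 mitochondrial ones, 12 and 14, with medians of -0.02 each. Of the latter, Mrps26 (30.2 and 59.3 reads) and Mrps24 were higher past 1.5-fold and Mrpl53 lower. Myc had 7.54, 6.25 and 6.83 RPKM, 1.1-fold lower (1.03 to 1.18), its partner gene Max 1.45 and 1.93 uninduced and grown out, and Mxi1, which opposes Myc, 1.09 and 0.591.

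**Figure D4:**
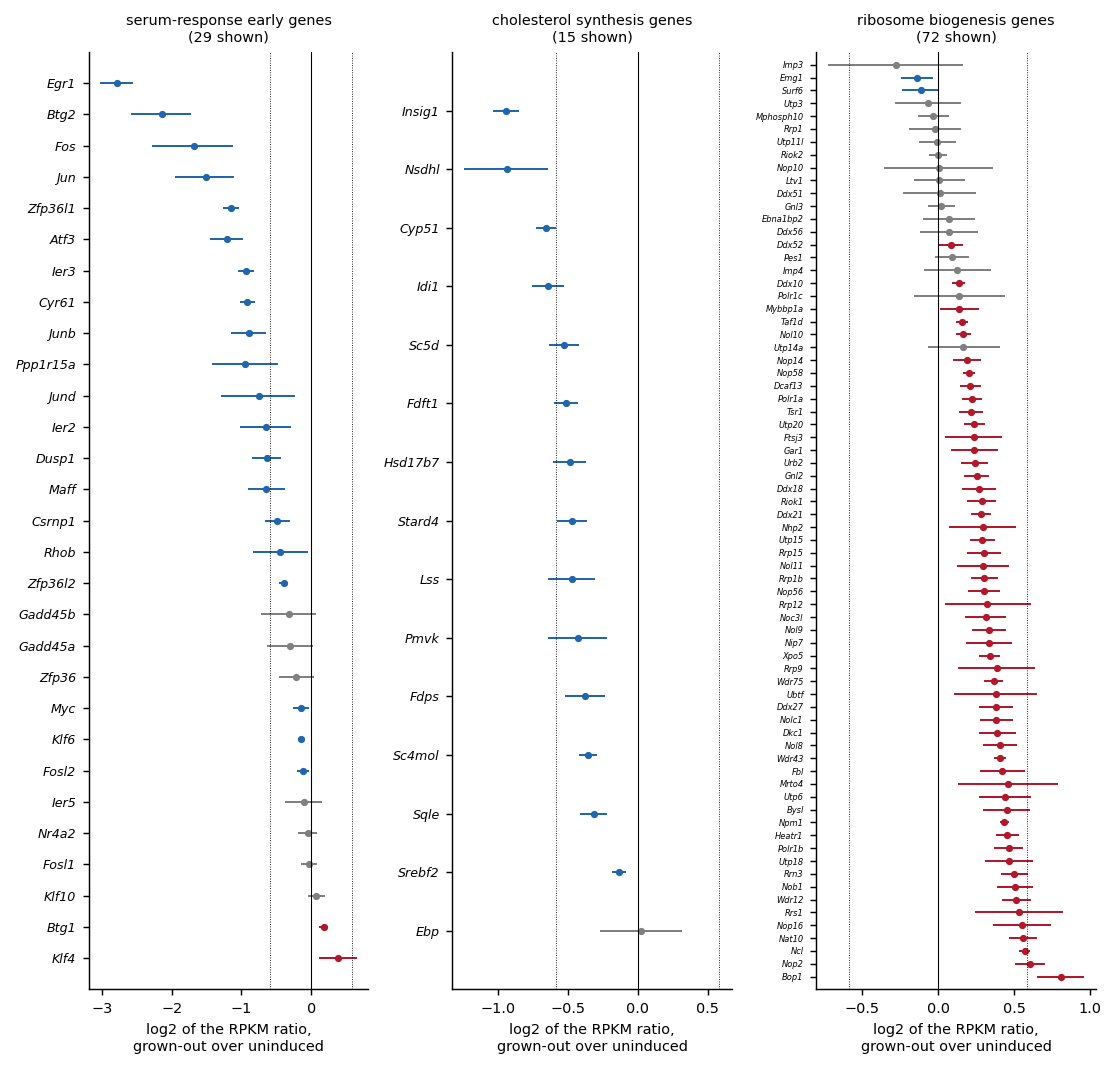
Log2 of the RPKM ratio of grown-out over uninduced cells for the members shown of 3 lists, with exact 95% intervals from the read counts as bars; red and blue mark intervals above and below no change, grey those that include it, dotted lines 1.5-fold. Of the 29 early genes 20 are blue, of the 15 cholesterol synthesis genes shown 14, and of the 72 ribosome biogenesis genes 54 are red.

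Replication and division genes moved little, apart from histone genes. Of 58 DNA replication genes, 28 were higher and 6 lower beyond counting error with none past 1.5-fold, from Brca1 at -0.57 to E2f2 at 0.42. Of 58 G2 and mitosis genes, 22 (37.9%) were higher and 14 (24.1%) lower, again with none past 1.5-fold. Over all measured genes these shares were 33.8% and 29.3%. Of 35 measured replication-dependent histone genes, 7 were higher past 1.5-fold and 0 lower, with a median of 0.45, and 15 were higher and 2 lower beyond counting error. Their models are short, and Hist1h2bj, Hist1h3d and Hist1h3i rested on 12.6, 15.1 and 18.6 reads in grown-out cells. Hist1h2ab, at 0.922 RPKM uninduced and 1.8 grown out, was also called. Of 19 G1 cyclins, CDKs and inhibitors, Cdkn2b, an inhibitor of CDK4 and CDK6, was the 1 called, at 3.64, 2.28 and 1.77 RPKM, and Cdkn2a had 6.89 uninduced and 5.40 grown out.

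A few growth-arrest and death genes were much lower in lists that otherwise were even. Among all measured genes 33.8% were higher and 29.3% lower beyond counting error, and 0.756% lower past 2-fold. Of 23 p53 target genes, 8 were higher and 7 lower beyond counting error and the median was -0.03, yet 4 were lower past 2-fold. Besides Btg2 these were Trp53inp1, a stress and autophagy protein gene, at 0.989, 0.768 and 0.313 RPKM, Sesn3, a sestrin that restrains mTORC1 and is also under FoxO control, at 1.90, 1.29 and 0.701, and Pmaip1, which encodes the BH3 protein Noxa, at 3.38, 1.83 and 1.43. Trp53 itself had 1.84 RPKM uninduced and 1.76 grown out, and Bax, another target, was higher at 1.68 and 2.32. Of 27 Bcl2 family and death regulators, 10 were higher and 10 lower. The 4 called were all lower: Pawr, Pmaip1, Birc3 and Bmf, a BH3 gene, at 1.11, 1.06 and 0.613 RPKM.

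Among 34 Nrf2 antioxidant and glutathione genes, more were lower than higher. Past 1.5-fold, 3 were lower, Sepp1, Cyp1b1 and Osgin1, and 18 (52.9%) were lower and 8 (23.5%) higher beyond counting error, against 29.3% and 33.8% of all measured genes. Of 25 glycolysis and hypoxia genes, 10 were higher and 10 lower, and Txnip, which limits glucose uptake, stood out at 6.14, 1.64 and 1.51 RPKM beside Ddit4. Of 72 oxidative phosphorylation subunits, 14 (19.4%) were higher and 11 (15.3%) lower, with Ndufc2 the 1 called, at 0.665 and 0.385 RPKM. Of 9 circadian clock genes, 3 were higher and 4 lower, and the repressor gene Bhlhe40 was called at 5.97, 2.40 and 2.74 RPKM. Of 10 Kruppel-like factors, 3 were higher and 3 lower, with Klf11 called. Proteasome subunits (39 measured, 10 higher and 13 lower), lysosome and autophagy genes (43, 11 and 12), endoplasmic reticulum chaperones (29, 10 and 12), splicing factors (57, 27 and 11) and Polycomb, Trithorax and DNA methylation genes (41, 22 and 11) had medians between -0.06 and 0.06, and Psme2 and Wipi1 were their members past 1.5-fold, both lower. Signs of medians within 0.02 of 0 could turn with scaling.

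By chromosome, 13 and X stood at the ends. Chromosome 13 had a median log2 ratio of 0.14 over 338 measured models, with 17 (5.03%) higher past 1.5-fold and 55.3% higher beyond counting error. Without its histone genes, the median over 310 models was 0.12, with 10 higher past 1.5-fold. Prl2c2, Nrn1 and Hnrnpa0 lie there. The X chromosome had a median of -0.11 over 284 models, with 19 (6.69%) lower past 1.5-fold, and -0.08 over the 121 models that overlap no other. Both measured Y-linked genes, Eif2s3y and Ddx3y, were lower as well, 1.89-fold and 1.99-fold. Medians of the other autosomes ran from -0.04 to 0.08.

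**Figure D5:**
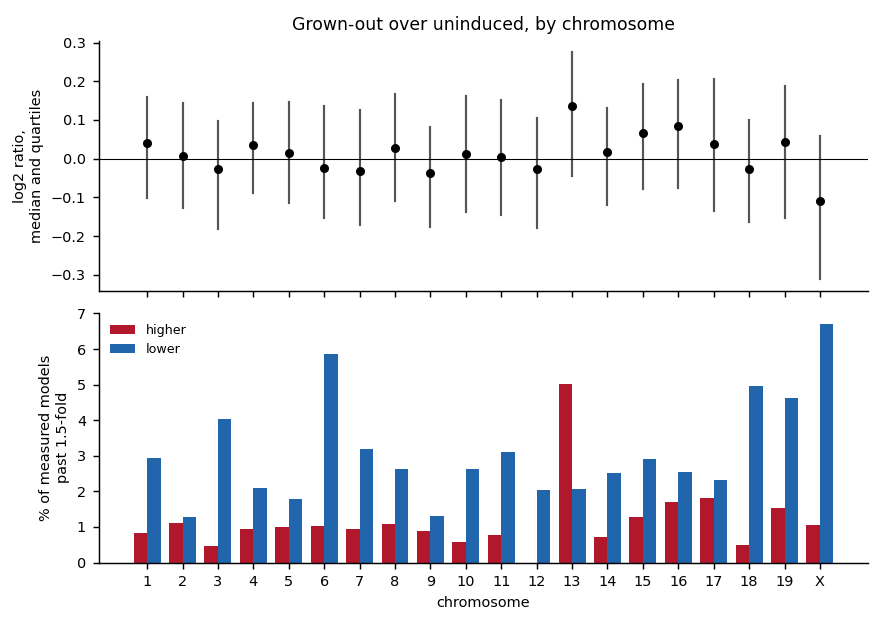
Upper panel, median (points) and quartiles (bars) of the log2 ratio of grown-out over uninduced cells for the measured models of each chromosome with at least 100; lower panel, percent of those models higher (red) or lower (blue) past 1.5-fold. Chromosome 13 has the highest median, 0.14, and 5.03% higher; the X chromosome has the lowest, -0.11, and 6.69% lower.

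Called genes had called neighbours more often than genes in general. Of the 234 lower genes, 28 (12.0%) lay next to a measured model that was also lower past 1.5-fold, against 5.68% of all measured models, and of the 90 higher genes 8 (8.89%) against 2.23%. These counts include Klra and Klra18, higher models on the same strand with a gap of 0 bp. They also include Eif2s3y and Ddx3y, the only 2 measured models of the Y chromosome. Scara3, a scavenger receptor gene, and Clu lie 14738 bp apart on opposite strands and were 2.30-fold and 2.25-fold lower. On chromosome 6, Akr1b10, Bpgm and Cald1 followed one another, at 1.6-fold, 1.94-fold and 2.67-fold lower, and Syt8 and Tnni2, 2069 bp apart on chromosome 7, were 1.61-fold and 2.40-fold higher. Over windows of 15 adjacent measured genes the lowest medians were -0.38 on the X chromosome, from Nkap to Bcorl1, and -0.35 on chromosome 18, from Eif4ebp3 to Pcdhgc3, where 6 of the 15 were lower past 1.5-fold. The highest was 0.46 in the histone cluster on chromosome 13.

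Short genes gave more of the calls. The median length was 5621 bp for the higher and 5628 bp for the lower genes, against 21754 bp for all measured. The shortest of 10 length classes, 312 to 3454 bp, held 36 of the higher and 77 of the lower genes at a median of 177 reads uninduced. The longest class held 4 and 13, at a median of 12940 reads. Models that overlap another on the same strand made up 8.04% of those measured, 48 of the 234 lower and 8 of the 90 higher genes.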

How the data were processed

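Bru-seq measured newly made RNA in 3 libraries of NB490 cells, 1 per condition. The submitters' processing notes name bedtools 2.16.2, TopHat 1.4.1, Bowtie 0.12.8 and CASAVA 1.8.2. They give a human build, hg19, but the gene models have mouse symbols; the build of the files is not given in the sources used here. Deposited estimated counts are reads per whole gene model, per the file headers, and 47.3% to 48.5% of those above 0 were whole within 0.01 of a read. The deposited RPKM values are these reads scaled by model length and library total, per the file headers. A model that overlaps another can be scaled by a shorter length than its span, and a long model gathers intron reads. Of 22658 models, 138 were left out (133 with a repeated symbol, 17 over 3 Mb, some being both).

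From the deposited values the log2 ratio of RPKM was computed with 0.05 added as a pseudocount, so changes of low genes are understated. The plain RPKM ratio had an exact conditional binomial 95% interval, and levels had exact Poisson 95% intervals (Python 3.11.15, scipy 1.17.1). Counts were rounded to whole reads for both. The ratio and its interval were run on simulated Poisson counts, the spread that the intervals assume. That run cannot show how the intervals hold for real libraries. The lists hold 55 sets of genes. The genes compared and the lists were chosen with earlier results of these data known. The naming rule took Pdx1, in each direction past 1.5-fold the 15 genes with the interval bound farthest from no change, leaving out clone-named and small RNA models, up to 4 members past 1.5-fold per list, and Cdh1, Vim, Zeb1 and Myc. Fewer were named where a list added little, some genes are not reported here, and other names were chosen after their values were seen. RefSeq promoters of GRCm38.p6 were matched by symbol or synonym for 6397 of the 7934 genes. Alternatives were pseudocount, expression, length and read minimums, leaving out overlapping models, and scaling by TMM (edgeR 4.0.16) and DESeq2 1.42.0 size factors.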

Additional observations from a re-analysis of the deposited data

Results flagged for a closer look

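In 6 genes the 48 h and grown-out libraries lay on opposite sides of the shared uninduced library, each past 1.5-fold. With 1 library per condition this difference was not tested. The log2 ratio to uninduced cells was -0.81 at 48 h and 0.88 grown out for Anxa10, -0.68 and 0.66 for Syt8, -0.75 and 0.64 for Vsig1, -0.88 and 0.86 for Id3, and -1.60 and 0.59 for Id1. Mrpl53, a mitochondrial ribosomal protein gene, went the other way, at 0.91 and -0.86, on 73.2 reads uninduced, 132 at 48 h and 32.1 grown out.

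Models under 300 bp were outside the comparison, and 216 of them reached the expression minimum. Past 2-fold, 2 were higher in grown-out cells and 3 lower. Sco2, a copper chaperone gene, had 1.1 RPKM grown out against 0.385 uninduced on 13.5 and 5.77 reads. Snord12, a small nucleolar RNA, had 41.5 RPKM against 19.6 on 114 and 65.9 reads.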

How the results depend on the processing

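No paired analysis was possible because each condition had 1 library. Past 1.5-fold, the 90 higher and 234 lower genes became 27 and 111 with a pseudocount of 0.5, 25 and 63 with a mean of at least 2 RPKM, and 179 and 776 with no minimum. A length of at least 3000 bp left 57 higher. The 14 higher and 60 lower genes past 2-fold became 6 and 21, 4 and 14, and 35 and 226 in the same order, and 4 and 7 higher genes were left with at least 3000 bp and at least 100 reads. TMM and DESeq2 scaling moved every gene by -0.01 on the log2 scale, and 26 of the 30 genes that head the rule stayed past 1.5-fold under all 8 alternatives in which they were measured. List medians changed sign or became 0 as follows. Gastric-type genes had -0.32 with at least 2 RPKM and 0 with no minimum, and mesenchymal genes 0.20 with at least 2 RPKM. Id and BMP genes had -0.0600 with no minimum and -0.0587 with at least 3000 bp. With at least 3000 bp, circadian genes had 0.0477 and histone genes -0.27. Immune and fibroblast markers had 0 with no minimum. Fewer genes enter under each of these minimums and more with none. Of the other list medians, counted once per list and setting, 394 kept their direction and size and 9 moved. Named genes kept their direction in every value, counted once per gene and setting. Of these values, 628 lay within the counting interval of the reported value and 64 outside it. A pseudocount of 0.5 gave 57 of the 64, and left 42 of the 99 named genes within the interval. With a mean of at least 2 RPKM, 34 named genes were measured.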
